A study of Mus musculus with 12 samples.

Results

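The enzymes that conjugate, spend and rebuild glutathione, together with the peroxiredoxins and their reductases, the superoxide dismutases and catalase, were followed across 12 RNA sequencing libraries of mouse white fat. Members were taken by gene symbol: the glutathione transferases (Gst and Mgst genes), glutathione peroxidases (Gpx1 to Gpx8), peroxiredoxins (Prdx), thioredoxin reductases (Txnrd), superoxide dismutases (Sod), the glutathione synthesis and recycling genes Gclc, Gclm, Gss and Gsr, and catalase (Cat). The symbols matched 49 of the 24890 features listed, in 14 classes. Of these, 43 reached at least 1 FPKM (fragments per kilobase of exon, scaled to the mapped fragments of the library) in at least 3 libraries and were tested among 13175 features. The other 6 stayed under that level. Their highest single libraries were 0.486 FPKM for Gstt4, 0.156 for Gpx2, 0.125 for Gsta1, 0.0627 for Gsta2 and 0.0232 for Gpx6, each in an SVC library, and Gpx5 was listed at 0 in all 12.

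The libraries came from male C57BL/6J mice aged 18 weeks that ate normal chow. Epididymal (EAT) and inguinal (IAT) adipose tissue was digested with collagenase I into adipocytes and stromal vascular cells (SVCs), the mixture of progenitor, endothelial, immune and other cells that is left when the adipocytes are taken off. This gave 4 groups of 3 libraries, which differ in depot and fraction and carry no named genetic change or drug. The labels do not tell whether a library holds 1 animal or several, so each p measures the spread between these libraries, which may be technical. C57BL/6J mice are known for a deletion within Nnt, a mitochondrial enzyme that supplies the NADPH used to reduce glutathione, and all 4 groups share this background.

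Glutathione is a small thiol that cells make through glutamate-cysteine ligase (Gclc, Gclm) and glutathione synthase (Gss) and return to its reduced form through glutathione reductase (Gsr). Transferases attach it to electrophiles such as the aldehydes that form when lipids oxidise, and glutathione peroxidases spend it to reduce hydrogen peroxide and lipid hydroperoxides. Superoxide dismutases make hydrogen peroxide from superoxide, and catalase, peroxiredoxins and the peroxidases remove it, the peroxiredoxins with electrons from thioredoxin and its reductases. In adipocytes, which store large amounts of fat, these enzymes are known for handling lipid peroxidation products.

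Estimated gene fragments ran from 14.1 M to 24.6 M per library, and the deposited confidence bounds, which cover counting error only, lay a median of 3.33% to 4.12% from values near 100 FPKM and 21.1% to 27.3% from values near 1 FPKM. The labels held on defining markers: Adipoq averaged 4150 and 3461 FPKM in EAT and IAT adipocytes and 7.18 and 21.7 FPKM in the SVCs of those depots. Macrophage markers (11 of 11 measured) summed to 504 to 643 FPKM in EAT adipocyte, 91.0 to 134 in IAT adipocyte, 4486 to 4712 in EAT SVC and 2485 to 2725 in IAT SVC libraries. One library stood apart. In EAT adipocyte library 1 the tested members had a median 0.30 above the other EAT adipocyte libraries on the log2 scale, where the median of all features was −0.01, and 31 of 43 members had their highest EAT adipocyte value there. The share of all features highest there was not computed. The rise was not particular to the members: FPKM over all features summed to 526360 there, against 429972 and 445202 in libraries 2 and 3. The members' part of that sum was 1.94%, against 1.93% and 1.90%. Its correlations with the other EAT adipocyte libraries across features were 0.982 and 0.985, against 0.993 to 0.996 for other pairs within a group. Counts without it are given beside the main ones, and member calls that change without it are given with the member.

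Adipocyte libraries held more of this RNA. Summed over the members, adipocyte libraries reached 8150 to 10215 FPKM, or 1.75% to 1.94% of all FPKM, and SVC libraries 3045 to 4139 FPKM, or 0.61% to 0.85%. The ratio of adipocytes to SVCs, computed from group means, was 1.49 ± 0.105 in EAT and 2.16 ± 0.199 in IAT for the summed cytosolic transferases, and 9.34 ± 1.29 and 6.52 ± 0.473 for the membrane transferases Mgst1 to Mgst3. For the glutathione peroxidases it was 2.07 ± 0.261 and 1.87 ± 0.159, and for the peroxiredoxins 1.97 ± 0.462 and 1.90 ± 0.121. The cytosolic sum averaged 1753 FPKM in EAT adipocytes and 1175 in EAT SVCs, and 1566 and 725 in IAT. It includes Gstz1, with means of 554 and 522 FPKM in EAT and IAT adipocytes and 7.69 and 12.7 in SVCs. In EAT the Gstz1 difference was nearly as large as that of the whole sum, so the other cytosolic members together differed little. In IAT it was a large part of the difference. The mu class in the cytosolic sum (Gstm1 to Gstm7) summed to 589 FPKM in EAT adipocytes and 815 in EAT SVCs, and to 465 and 417 in IAT. Mean sums of the alpha, pi, theta and omega classes were higher in adipocytes in both depots. For theta in EAT the libraries overlapped, at 108.7 to 112.9 FPKM in adipocytes and 93.1 to 111.0 in SVCs. A higher level in a fraction of a bulk sample can come from more cells of a type or from more RNA per cell, and these cannot be told apart.

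**Figure D1:**
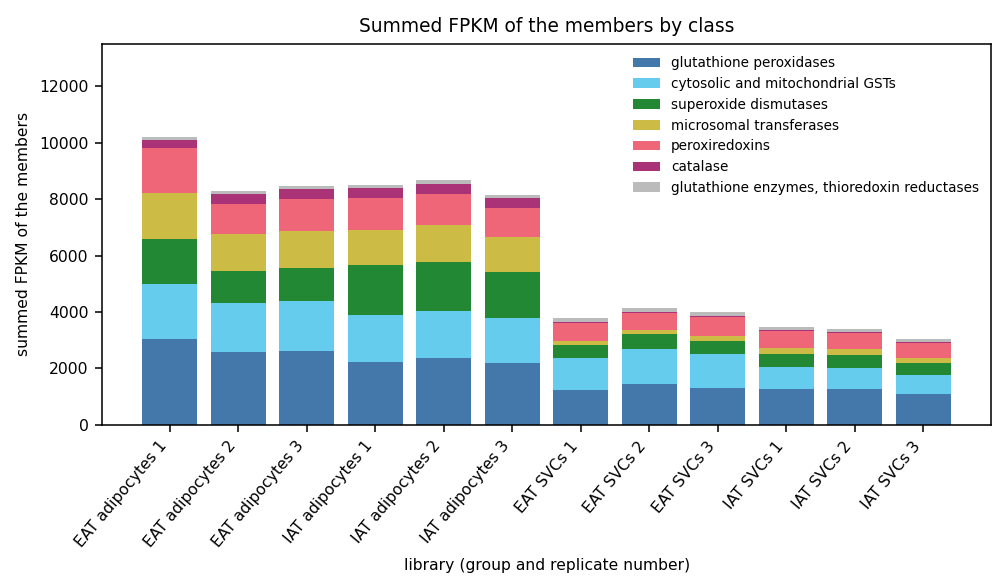
Summed FPKM of the measured members in each of the 12 libraries, stacked by class, with libraries on the horizontal axis and FPKM on the vertical axis. The 6 adipocyte libraries reach 8150 to 10215 FPKM and the 6 SVC libraries 3045 to 4139 FPKM.

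Differences between groups were fitted on log2(FPKM + 1), a scale that understates the change of low members. They are given with their standard error, and p values are from limma with Benjamini-Hochberg adjustment over the 13175 features, called under 0.05. Group values are mean ± SD of 3 libraries. In EAT, 31 of the 43 tested members were higher in adipocytes than in SVCs and 7 were lower, where 31.1% of all tested features were called higher and 52.7% lower. In IAT, 33 members were higher in adipocytes and 4 lower, where 29.8% of all features were higher and 53.9% lower. The members' median difference was 0.87 in EAT and 1.09 in IAT, and that of all features was −0.31 and −0.34. Scaling the libraries by median of ratios moved the median of all features to 0.0044 and −0.0033 and split all calls about evenly (5503 higher and 5473 lower in EAT, 5471 and 5463 in IAT), and then adipocytes were above SVCs for 35 members and below for 6 in EAT, and for 37 members and 1 in IAT. In both depots 30 members were higher in adipocytes, and Gclc and Prdx4 were lower in both. The share of all features called alike in both depots was not computed. The fits were repeated under 18 alternative settings (another pseudocount, no filter, 2 scalings, the compared groups alone, a replicate block and each library left out). Of the calls, those of Gclm, Gstp1, Prdx2 and Prdx4 in EAT and of Gstp2, Prdx2, Gclc, Gpx7 and Gstt2 in IAT were lost under at least 1 of these, and the others were kept under all 18.

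Fewer members differed between depots than between fractions, and the same was true of all tested features. In adipocytes, 10 members were higher in IAT than in EAT and 9 were lower, where 10.3% of all features were called higher and 27.3% lower, and the members' median was −0.02 against −0.10 for all features. In SVCs, 6 members were higher in IAT and 17 lower, where 14.0% of all features were higher and 26.2% lower, with medians of −0.19 and −0.06. Under median-of-ratios scaling the adipocyte counts became 14 higher and 5 lower (all features 2124 and 2197) and the SVC counts 8 and 12 (all features 2466 and 2547). Without EAT adipocyte library 1 they were 12 and 8 in adipocytes, where 14.66% and 34.79% of all features were called, and 9 and 20 in SVCs, where 17.64% and 32.3% were called. The SVC differences themselves are the same in that fit, which shares its estimate of the spread among all groups. Its added SVC calls were Gpx7 (adjusted p = 0.0125), Prdx3 (adjusted p = 0.0324) and Gstk1 (adjusted p = 0.0445), higher in IAT, and Gsto1 (adjusted p = 0.0101), Gstp1 (adjusted p = 0.0162) and Gstm2 (adjusted p = 0.0265), lower in IAT. For 5 members the called directions were opposite, higher in IAT adipocytes and lower in IAT SVCs: Gsta4, Gstm7, Gsto2, Sod2 and Txnrd1. Prdx6 had the reverse pattern, and Gpx1, Gsta3, Gstm1, Gstm4 and Gstm6 were lower in IAT in both fractions. Shares over all features were not computed for these paired calls.

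The difference between the depot differences was itself tested. It was called for 22 members: for 16 the depot difference (IAT minus EAT) was higher in adipocytes than in SVCs, and for 6 it was lower, where 14.7% and 17.8% of all features were called. Group means were highest in EAT adipocytes for 19 of the 43 tested members, in IAT adipocytes for 15, in EAT SVCs for 7 (Gclc, Gpx8, Gstm1, Gstm3, Gstm5, Prdx4 and Txnrd1) and in IAT SVCs for 2 (Gpx7 and Gstt2). These are orders of means, and several neighbours in them do not differ by test. Shares of all features by highest group were not computed.

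**Figure D2:**
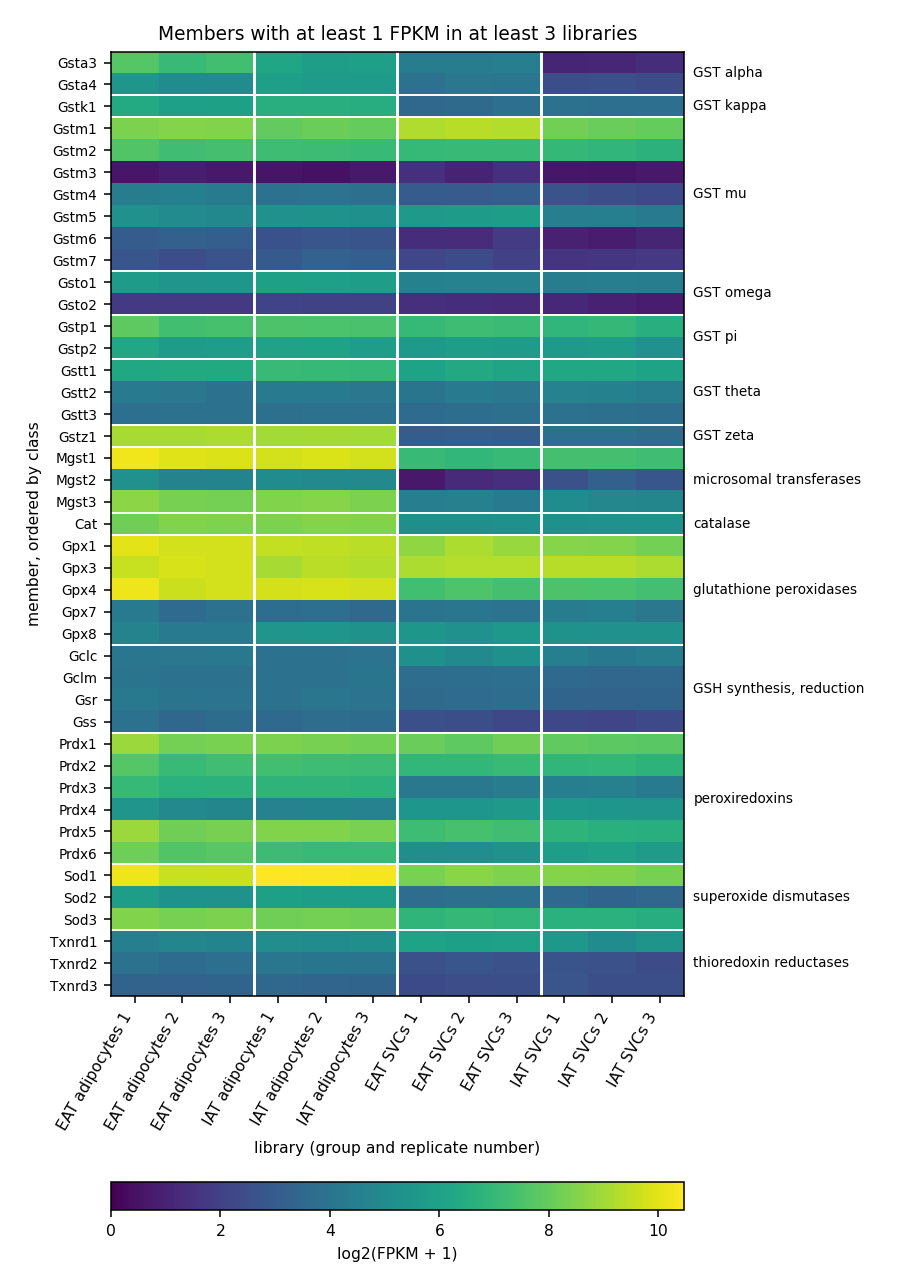
Level of the 43 tested members (rows, by class) in each of the 12 libraries (columns, by group), as log2(FPKM + 1) on a colour scale. Gstz1, Mgst1 to Mgst3 and Cat are each higher in the 6 adipocyte libraries than in the 6 SVC libraries, and Gsta3 is lowest in the 3 IAT SVC libraries.

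Among the alpha class transferases, which act on products of lipid peroxidation, Gsta3 and Gsta4 were measured, and both were lower in IAT than in EAT SVCs. Gsta3 (chr1:21240585-21265575) was at 205, 135 and 158 FPKM in EAT adipocytes and 69.3, 57.1 and 58.2 in IAT adipocytes. EAT SVCs held 19.8, 20.2 and 21.4 FPKM and IAT SVCs 1.15, 1.17 and 1.61. The 4 groups did not overlap. It was 2.70-fold lower in IAT than in EAT adipocytes (log2 difference −1.40 ± 0.14, adjusted p = 6.0e-06) and 15.7-fold lower in IAT than in EAT SVCs (log2 difference −3.22 ± 0.14, adjusted p = 1.3e-09). Adipocytes exceeded SVCs 8.10-fold in EAT (log2 difference 2.94 ± 0.14, adjusted p = 3.2e-10) and 47.0-fold in IAT (log2 difference 4.76 ± 0.14, adjusted p = 3.6e-12). Gsta4 (chr9:78191966-78209349), known for conjugating 4-hydroxynonenal, an aldehyde from oxidised fatty acids, was at 46.0, 33.3 and 32.5 FPKM in EAT adipocytes and 58.4, 53.7 and 53.7 in IAT adipocytes. EAT SVCs held 14.1, 16.6 and 16.1 FPKM and IAT SVCs 4.71, 4.95 and 4.46. Here too no groups overlapped, and the order differed from that of Gsta3: IAT adipocytes were highest and IAT SVCs lowest. Gsta4 was 1.48-fold higher in IAT than in EAT adipocytes (log2 difference 0.57 ± 0.12, adjusted p = 0.00215) and 3.31-fold lower in IAT than in EAT SVCs (log2 difference −1.54 ± 0.12, adjusted p = 3.4e-07). The excess of adipocytes over SVCs was 2.39-fold in EAT (log2 difference 1.19 ± 0.12, adjusted p = 5.7e-07) and 11.8-fold in IAT (log2 difference 3.30 ± 0.12, adjusted p = 2.3e-11). Gsta1, Gsta2 and Gsta4 lie within 155 kb on chr9 (chr9:78191966-78347145), apart from Gsta3 on chr1.

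Mesothelial markers, of the cell layer that covers the visceral fat pad, moved with these SVC differences. Of the 7 listed, 6 were in the tables, and they summed to 393 to 458 FPKM in EAT SVC and 1.51 to 1.90 FPKM in IAT SVC libraries, with Wt1 at 0 in all IAT SVC libraries and Upk3b at 171 FPKM on average in EAT SVCs and 0.0393 in IAT SVCs. In adipocytes the same list summed to 17.1 to 19.7 FPKM in EAT and 0.479 to 0.516 in IAT. The macrophage list was also lower in IAT SVCs, as given above. Their part in the lower IAT SVC level of Gsta3, Gsta4 and the other members was not tested.

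The core of the antioxidant response element, the site through which NRF2 is known to act on several of these genes, was searched for in the promoters, since many members moved together. The motif TGAC, then 3 bases of any kind, then GCA was sought on both strands of 300-base windows (250 bases before to 50 after the start) from RefSeq on GRCm38.p6. Of the 49 members, 43 matched a window, and Gclc, Gsr, Gsta4, Gstt2, Prdx6 and Sod3 did not. The motif was found in 2 of these 43 (4.65%), and in 932 of 27025 genes of the table (3.45%). The matches, shown with 20 bases on each side because they are the members' 2 hits, are printed 5′ to 3′ on the plus strand with the motif in capitals. The first lies at chr1:21240444-21240493, with the motif 121 to 112 bases before the start of Gsta3, and the second at chr10:82859093-82859142, with the motif on the opposite strand. The table gives 3 windows for Txnrd1, and this match is 93 to 84 bases before an alternative start that lies inside the deposited feature (chr10:82833951-82897724).
Gsta3: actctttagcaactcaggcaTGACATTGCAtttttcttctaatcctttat
Txnrd1: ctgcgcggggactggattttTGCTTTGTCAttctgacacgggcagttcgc
A match is a run of letters and not a measured site. Gsta3 was higher and Txnrd1 lower in EAT adipocytes than in EAT SVCs.

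The 7 mu class genes, Gstm1 to Gstm7, transferases for epoxides and other electrophiles, lie within 149 kb on chr3 (chr3:107895854-108044859), and they did not share 1 pattern. Gstm1 was the most abundant, at 333, 363 and 358 FPKM in EAT adipocytes and 246, 273 and 250.1 in IAT adipocytes. EAT SVCs held 599.5, 639 and 609 FPKM and IAT SVCs 298, 270.5 and 251. EAT SVCs stood above the other 3 groups in every library. Gstm1 was lower in IAT than in EAT in SVCs (log2 difference −1.17 ± 0.09, adjusted p = 3.1e-07) and in adipocytes (log2 difference −0.45 ± 0.09, adjusted p = 0.00167), and lower in adipocytes than in SVCs in EAT (log2 difference −0.81 ± 0.09, adjusted p = 1.7e-06). In IAT the fractions overlapped and no difference was called (adjusted p = 0.361), though adipocytes were called higher under median-of-ratios scaling (adjusted p = 0.00368). Gstm5 had opposite fraction differences in the depots, at 38.2, 32.1 and 28.3 FPKM in EAT adipocytes and 38.3, 38.8 and 37.3 in IAT adipocytes. EAT SVCs held 49.2, 53.2 and 56.9 FPKM and IAT SVCs 21.3, 21.8 and 19.2. The adipocyte groups overlapped, while EAT SVCs were above them and IAT SVCs below them. It was lower in adipocytes than SVCs in EAT (log2 difference −0.69 ± 0.10, adjusted p = 2.7e-05) and higher in IAT (log2 difference 0.85 ± 0.10, adjusted p = 3.6e-06), and 2.56-fold lower in IAT than in EAT SVCs (log2 difference −1.31 ± 0.10, adjusted p = 3.5e-07). Between adipocytes of the depots it was not called (adjusted p = 0.101), but without EAT adipocyte library 1 it was called higher in IAT (adjusted p = 0.00452), as it was under median-of-ratios scaling (adjusted p = 0.0258).

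Gstm7 was at 5.94, 4.51 and 5.42 FPKM in EAT adipocytes and 6.74, 8.92 and 7.86 in IAT adipocytes. EAT SVCs held 3.63, 4.38 and 3.22 FPKM and IAT SVCs 2.03, 2.18 and 2.38. IAT adipocytes were highest in every library and IAT SVCs lowest. Gstm7 was higher in IAT than EAT adipocytes (log2 difference 0.49 ± 0.12, adjusted p = 0.0062) and lower in IAT than EAT SVCs (log2 difference −0.56 ± 0.12, adjusted p = 0.00212). Gstm4 was at 20.1, 21.7 and 19.7 FPKM in EAT adipocytes and 14.1, 14.9 and 13.7 in IAT adipocytes. EAT SVCs held 7.18, 6.97 and 7.73 FPKM and IAT SVCs 5.31, 4.68 and 4.11. Both fractions were lower in IAT with no overlap (log2 difference −0.50 ± 0.08, adjusted p = 5.5e-04 in adipocytes, log2 difference −0.54 ± 0.08, adjusted p = 1.9e-04 in SVCs). Adipocytes were above SVCs for Gstm4 in EAT (log2 difference 1.38 ± 0.08, adjusted p = 4.5e-09) and in IAT (log2 difference 1.42 ± 0.08, adjusted p = 3.3e-09). Gstm2 was higher in adipocytes in both depots, at 170.4 ± 21.1 and 142 ± 5.05 FPKM against 132 ± 3.04 and 115 ± 9.73 in EAT and IAT SVCs. Gstm6 was likewise at 7.72 ± 0.471 and 5.65 ± 0.377 against 1.87 ± 0.581 and 0.948 ± 0.201. Both were called lower in IAT adipocytes. The Gstm2 call was lost under 13 of 18 alternatives (adjusted p 0.00213 to 0.455), among them leaving out any 1 of 10 libraries, with EAT adipocyte library 1 one of these (adjusted p = 0.0917). The Gstm6 call was lost under 8 of 18 alternatives. It was lost without EAT adipocyte library 2, EAT adipocyte library 3, IAT adipocyte library 1 or IAT adipocyte library 3 (adjusted p 0.0564 to 0.0902). The other losses were with the pseudocount at 0.1, no filter, rescaling to TPM and median-of-ratios scaling. Gstm3 was low, at most 1.74 FPKM in any library, and lower in IAT than EAT SVCs (log2 difference −0.66 ± 0.11, adjusted p = 3.6e-04). Of the 50-base stretches of their transcripts, 28.8% for Gstm3, 23.2% for Gstm1, 11.5% for Gstm6 and 9.36% for Gstm2 also occur in another gene. Of the exon bases of Gstm5, 13.9% overlap the opposite-strand gene 4933431E20Rik, so the split of reads among these genes is uncertain.

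The pi class gene Gstp1, an abundant cytosolic transferase, was at 234, 156 and 169 FPKM in EAT adipocytes and 186, 181 and 173 in IAT adipocytes. EAT SVCs held 127, 147 and 138 FPKM and IAT SVCs 117, 124 and 93.6. Adipocytes were above SVCs in every library of both depots. It was higher in adipocytes in EAT (log2 difference 0.42 ± 0.14, adjusted p = 0.0157) and in IAT (log2 difference 0.70 ± 0.14, adjusted p = 5.1e-04), and the EAT call was lost without EAT SVC library 1 (adjusted p = 0.0592). Without EAT adipocyte library 1 the EAT difference was 0.24, still called. Gstp2, its tandem copy, was at 61.8 ± 13.5 and 62.3 ± 4.51 FPKM in EAT and IAT adipocytes and 53.1 ± 4.64 and 47.0 ± 8.24 in the SVCs, called higher in adipocytes in IAT (log2 difference 0.41 ± 0.15, adjusted p = 0.0231) and not in EAT (adjusted p = 0.236). In EAT it was called higher too after rescaling to TPM (adjusted p = 0.0412) and under median-of-ratios scaling (adjusted p = 0.00612). The IAT call was lost without IAT adipocyte library 1, IAT adipocyte library 2 or IAT SVC library 3 (adjusted p 0.0602 to 0.12). The copies share 62.3% of 50-base stretches of Gstp1 and 72.6% of Gstp2, so their split is uncertain.

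Of the 4 theta class genes in 1 cluster on chr10 (chr10:75774122-75834881), Gstt1, known for acting on small halogenated molecules, was highest in IAT adipocytes. Its libraries were at 77.3, 81.4 and 80.3 FPKM in EAT adipocytes and 129.8, 128 and 124 in IAT adipocytes. EAT SVCs held 65.4, 79.6 and 68.2 FPKM and IAT SVCs 75.6, 75.4 and 65.8. The 3 IAT adipocyte libraries were above all 9 others, among which EAT SVCs overlapped both EAT adipocytes and IAT SVCs. Gstt1 was higher in IAT than EAT adipocytes (log2 difference 0.67 ± 0.08, adjusted p = 6.1e-05) and higher in IAT adipocytes than IAT SVCs (log2 difference 0.81 ± 0.08, adjusted p = 1.2e-06), and in EAT the fractions overlapped (adjusted p = 0.0835). The EAT difference was called higher in adipocytes without EAT SVC library 2 (adjusted p = 0.0117), after rescaling to TPM (adjusted p = 0.0458) and under median-of-ratios scaling (adjusted p = 8.5e-05). Gstt2 was at 18.3, 16.6 and 14.4 FPKM in EAT adipocytes and 18.2, 18.9 and 16.7 in IAT adipocytes. EAT SVCs held 15.7, 18.3 and 16.9 FPKM and IAT SVCs 24.0, 23.5 and 20.4. IAT SVCs were above the other 3 groups. Gstt2 was higher in IAT than EAT SVCs (log2 difference 0.39 ± 0.10, adjusted p = 0.00588) and lower in IAT adipocytes than IAT SVCs (log2 difference −0.32 ± 0.10, adjusted p = 0.00822), but under median-of-ratios scaling that fraction difference turned to 0.09 (adjusted p = 0.429). The same scaling called Gstt2 higher in adipocytes in EAT (adjusted p = 0.0139), where no difference was called otherwise (adjusted p = 0.651). Gstt3 was between 11.7 and 14.6 FPKM in all 12 libraries and was called in no comparison on the deposited scale, with adjusted p from 0.117 for the EAT fractions to 0.996 for the adipocyte depots, and 26.0% of its 50-base stretches also occur in Gm20441. Without EAT adipocyte library 1 it was called higher in EAT adipocytes than EAT SVCs (adjusted p = 0.0372), and under median-of-ratios scaling it was called higher in adipocytes in EAT (adjusted p = 2.8e-05) and IAT (adjusted p = 5.6e-05).

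The omega class, whose members are known as thiol transferases and dehydroascorbate reductases, has Gsto1 and Gsto2 side by side on chr19. Gsto1 was at 53.2, 43.3 and 44.6 FPKM in EAT adipocytes and 60.8, 58.6 and 55.0 in IAT adipocytes. EAT SVCs held 23.2, 24.1 and 24.1 FPKM and IAT SVCs 20.9, 21.2 and 20.04. Adipocytes were above SVCs in both depots (log2 difference 0.95 ± 0.08, adjusted p = 1.3e-07 in EAT, log2 difference 1.45 ± 0.08, adjusted p = 1.9e-09 in IAT) and higher in IAT than EAT adipocytes (log2 difference 0.30 ± 0.08, adjusted p = 0.0101). That depot call was lost in a fit of the adipocyte groups alone (adjusted p = 0.0532). Gsto2 was much lower, at 2.44, 2.41 and 2.29 FPKM in EAT adipocytes and 3.28, 3.13 and 3.05 in IAT adipocytes. EAT SVCs held 1.62, 1.61 and 1.40 FPKM and IAT SVCs 1.23, 0.944 and 0.728. The 4 groups did not overlap, and IAT was the higher depot in adipocytes (log2 difference 0.30 ± 0.09, adjusted p = 0.0164) and the lower in SVCs (log2 difference −0.38 ± 0.09, adjusted p = 0.00362). Its adipocyte depot call was lost without EAT adipocyte library 3 or IAT adipocyte library 1 (adjusted p 0.0538 to 0.0583), and with the pseudocount at 0.1 or values rescaled to TPM.

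Gstk1, a transferase of mitochondria and peroxisomes, was at 84.3, 59.6 and 60.2 FPKM in EAT adipocytes and 93.1, 92.7 and 89.5 in IAT adipocytes. EAT SVCs held 10.5, 11.4 and 13.1 FPKM and IAT SVCs 14.0, 13.0 and 13.0. Adipocyte and SVC libraries did not overlap. Gstk1 was higher in adipocytes in EAT (log2 difference 2.43 ± 0.12, adjusted p = 5.9e-10) and in IAT (log2 difference 2.70 ± 0.12, adjusted p = 2.1e-10). It was also higher in IAT than EAT adipocytes (log2 difference 0.45 ± 0.12, adjusted p = 0.0114), a call lost without EAT adipocyte library 3 (adjusted p = 0.0519) and in a fit of the adipocyte groups alone. Gstz1, the maleylacetoacetate isomerase of tyrosine breakdown, was at 541, 552 and 569 FPKM in EAT adipocytes and 516, 534 and 517 in IAT adipocytes. EAT SVCs held 7.44, 8.07 and 7.55 FPKM and IAT SVCs 13.1, 13.2 and 12.0. Every adipocyte library was at 516 FPKM or more and no SVC library passed 13.2 FPKM. Gstz1 had the highest fraction difference of the members, 72.1-fold in EAT (log2 difference 6.00 ± 0.06, adjusted p = 1.6e-15) and 41.0-fold in IAT (log2 difference 5.25 ± 0.06, adjusted p = 1.5e-14). It was higher in IAT than EAT SVCs (log2 difference 0.66 ± 0.06, adjusted p = 3.7e-06) and was not called between the adipocytes (adjusted p = 0.324). Of its exon bases, 9.14% overlap the opposite-strand gene Pomt2, and the strand of counting is not given in the sources used here.

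**Figure D3:**
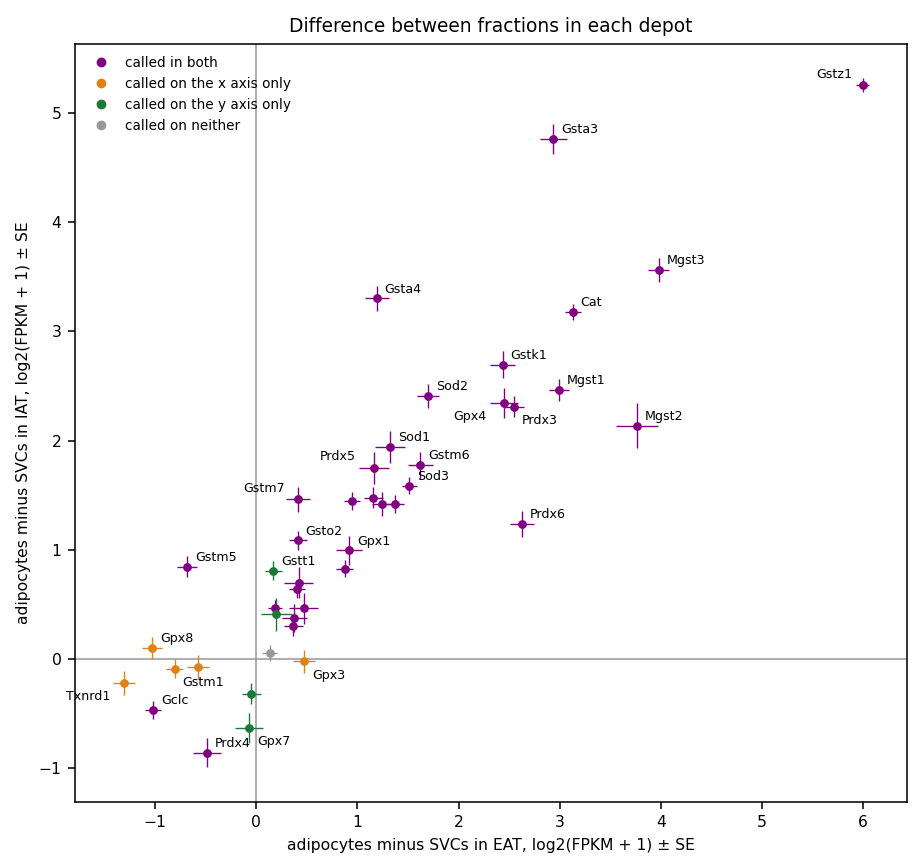
Log2 difference of adipocytes minus SVCs in EAT (horizontal axis) and IAT (vertical axis) for the 43 tested members, each with its standard error, coloured by which differences passed the test. Gstz1 is at the upper right at 6.00 and 5.25, and Gstm5 is the 1 member called lower in EAT and higher in IAT.

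The membrane-bound transferases of the endoplasmic reticulum and mitochondria were all higher in adipocytes. Mgst1, which also reduces lipid hydroperoxides, was at 1196, 979 and 952 FPKM in EAT adipocytes and 868, 936 and 855 in IAT adipocytes. EAT SVCs held 131, 121 and 136 FPKM and IAT SVCs 164, 165 and 150.0. No SVC library came near an adipocyte library (log2 difference 2.99 ± 0.10, adjusted p = 1.7e-11 in EAT, log2 difference 2.47 ± 0.10, adjusted p = 9.8e-11 in IAT). Mgst3 was at 395, 319 and 313 FPKM in EAT adipocytes and 355, 372 and 338 in IAT adipocytes. EAT SVCs held 21.2, 22.5 and 18.5 FPKM and IAT SVCs 32.6, 28.1 and 26.9. Adipocytes were again above SVCs (log2 difference 3.98 ± 0.11, adjusted p = 2.7e-12 in EAT, log2 difference 3.56 ± 0.11, adjusted p = 6.5e-12 in IAT). Mgst2, known for making leukotriene C4, was at 38.2, 24.7 and 25.5 FPKM in EAT adipocytes and 33.4, 30.7 and 29.6 in IAT adipocytes. EAT SVCs held 0.664, 1.40 and 1.67 FPKM and IAT SVCs 5.07, 8.37 and 5.87. Adipocytes exceeded SVCs 23.7-fold in EAT (log2 difference 3.76 ± 0.20, adjusted p = 1.6e-09) and 4.85-fold in IAT (log2 difference 2.14 ± 0.20, adjusted p = 4.9e-07).

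All 3 were higher in IAT than in EAT SVCs with no overlap, Mgst2 by 5.18-fold (log2 difference 1.73 ± 0.20, adjusted p = 2.1e-05), Mgst3 by 1.41-fold (log2 difference 0.47 ± 0.11, adjusted p = 0.00376) and Mgst1 by 1.23-fold (log2 difference 0.30 ± 0.10, adjusted p = 0.0315). The Mgst1 call was lost without EAT SVC library 1, EAT SVC library 2, IAT SVC library 1 or IAT SVC library 2 (adjusted p 0.0709 to 0.108). None was called between the adipocytes of the depots, with adjusted p of 0.0968 for Mgst1, 0.719 for Mgst2 and 0.697 for Mgst3, but Mgst1 was called lower in IAT after rescaling to TPM (adjusted p = 0.00863). Adipocyte markers (8 of 8 measured) moved the same way, summing to 4463 to 5237 FPKM in EAT SVC and 6444 to 7282 in IAT SVC libraries. Nearly all of this sum was Fabp4, with means of 4729 FPKM in EAT and 6626 in IAT SVCs. Each of the other listed markers also had a higher mean in IAT SVCs, the most abundant being Pnpla2 at 42.0 and 62.8 FPKM. As a share of the adipocytes of the same depot, SVCs held 4.22% of the Mgst2 level in EAT and 20.6% in IAT, 6.06% and 8.22% of Mgst3, 12.4% and 18.0% of Mgst1 and 1.39% and 2.44% of Gstz1. Adipoq stood at 0.173% and 0.626%, Plin1 at 0.418% and 0.780% and Fabp4 at 20.9% and 24.0%. The part of adipocyte RNA in these SVC differences was not tested.

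**Figure D4:**
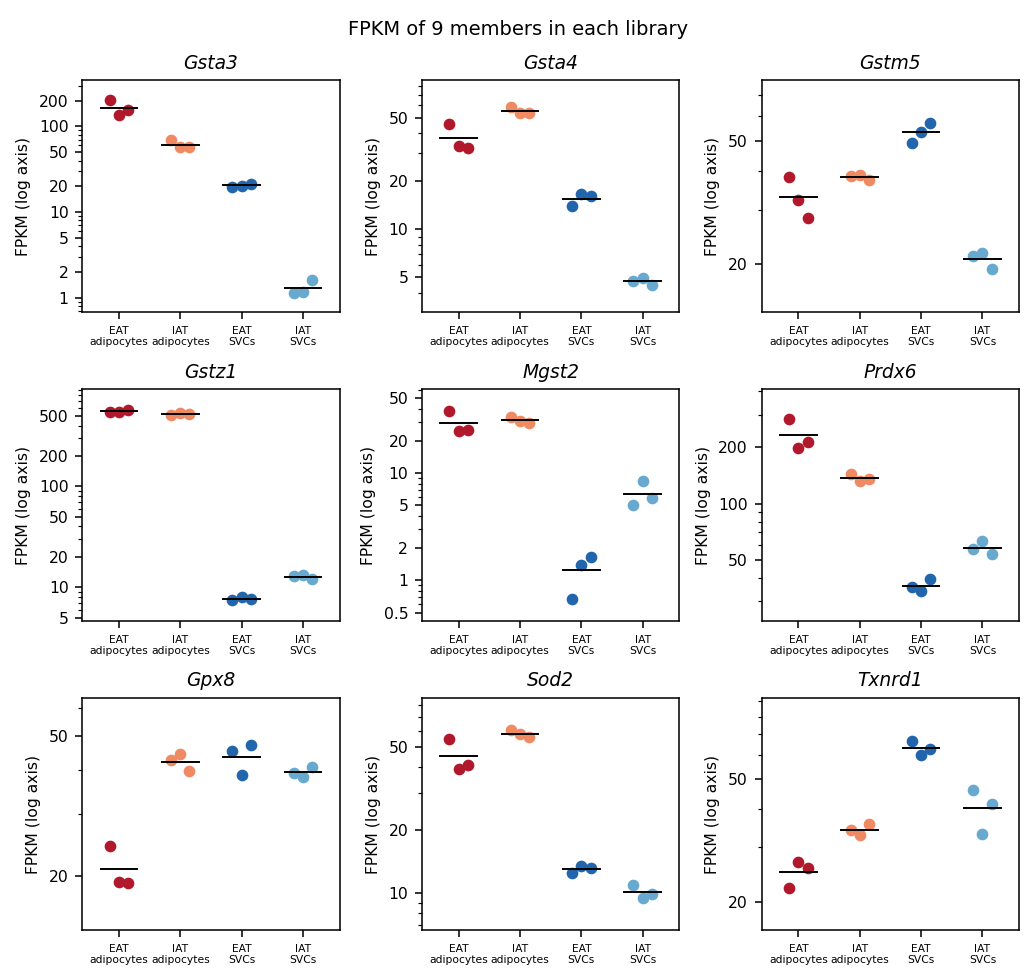
FPKM on a log axis in each of the 12 libraries for Gsta3, Gsta4, Gstm5, Gstz1, Mgst2, Prdx6, Gpx8, Sod2 and Txnrd1, with points for libraries and a black line for each group mean. Gstz1 and Mgst2 are low in all 6 SVC libraries, Gsta3 and Gsta4 are lowest in the 3 IAT SVC libraries, and Gpx8 and Txnrd1 are lowest in the 3 EAT adipocyte libraries.

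Of the 8 glutathione peroxidases, 5 were measured. Gpx3, the secreted peroxidase of plasma, had the highest mean over the 12 libraries, at 771, 919.6 and 858 FPKM in EAT adipocytes and 553, 671 and 616 in IAT adipocytes. EAT SVCs held 585, 624 and 625 FPKM and IAT SVCs 639, 652 and 573. EAT adipocytes were highest and IAT adipocytes overlapped IAT SVCs. Gpx3 was lower in IAT than EAT adipocytes (log2 difference −0.47 ± 0.11, adjusted p = 0.00419) and higher in adipocytes than SVCs in EAT (log2 difference 0.47 ± 0.11, adjusted p = 0.00109), with no call in IAT (adjusted p = 0.864) other than a higher level in adipocytes under median-of-ratios scaling (adjusted p = 0.0032). Gpx1, the cytosolic enzyme for hydrogen peroxide, was higher in adipocytes in both depots, at 921 ± 119 FPKM in EAT and 700.2 ± 30.5 in IAT against 488 ± 76.5 and 352 ± 35.3 in SVCs. Both differences passed the test (log2 difference 0.92 ± 0.13, adjusted p = 2.4e-05 and log2 difference 0.99 ± 0.13, adjusted p = 1.1e-05). It was also called lower in IAT in both fractions. The adipocyte depot call (log2 difference −0.39 ± 0.13, adjusted p = 0.035) was lost without EAT adipocyte library 1, IAT adipocyte library 1, IAT adipocyte library 2 or IAT adipocyte library 3 (adjusted p 0.0642 to 0.108). The SVC call (log2 difference −0.46 ± 0.13, adjusted p = 0.0133) was lost without EAT SVC library 2 or IAT SVC library 3 (adjusted p 0.0604 to 0.0625). Both were also lost under median-of-ratios scaling, and the adipocyte call with no filter and with the adipocyte groups alone. Macrophage markers were lower in IAT in both fractions as well, and their part in the Gpx1 differences was not tested.

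Gpx4, which reduces phospholipid hydroperoxides in membranes, was at 942 ± 208 and 887 ± 31.4 FPKM in EAT and IAT adipocytes and 170.1 ± 19.3 and 174 ± 12.6 in SVCs. Gpx4 was higher in adipocytes in EAT (log2 difference 2.45 ± 0.14, adjusted p = 2.4e-09) and IAT (log2 difference 2.35 ± 0.14, adjusted p = 3.7e-09). A processed copy, Gpx4-ps2, shares 61.7% of its 50-base stretches, so its level is uncertain. Gpx7 and Gpx8 are peroxidases of the endoplasmic reticulum that carry cysteine in place of selenocysteine, and neither was called higher in adipocytes on the deposited scale. Gpx8 was at 24.3, 19.3 and 19.1 FPKM in EAT adipocytes and 42.6, 44.4 and 39.8 in IAT adipocytes. EAT SVCs held 45.1, 38.7 and 47.0 FPKM and IAT SVCs 39.3, 38.1 and 40.9. EAT adipocytes lay below the other 3 groups, which overlapped. It was 2.02-fold higher in IAT than EAT adipocytes (log2 difference 0.99 ± 0.10, adjusted p = 8.3e-06), with no call between SVCs (adjusted p = 0.301), and lower in adipocytes than SVCs in EAT (log2 difference −1.03 ± 0.10, adjusted p = 5.4e-07). After rescaling to TPM, Gpx8 was called lower in IAT than EAT SVCs (adjusted p = 0.0366). In IAT it was called higher in adipocytes after that rescaling (adjusted p = 0.0281) and under median-of-ratios scaling (adjusted p = 7.5e-04). Gpx7 was at 18.7, 11.8 and 13.9 FPKM in EAT adipocytes and 12.6, 13.2 and 11.2 in IAT adipocytes. EAT SVCs held 15.3, 16.1 and 14.6 FPKM and IAT SVCs 20.1, 22.1 and 16.8. The EAT fractions overlapped, and IAT adipocytes were below IAT SVCs. Gpx7 was lower in adipocytes than SVCs in IAT (log2 difference −0.63 ± 0.14, adjusted p = 0.00103), a call lost under median-of-ratios scaling (adjusted p = 0.192), and without EAT adipocyte library 1 it was called lower in EAT as well (adjusted p = 0.0499).

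Among the peroxiredoxins, 5 of 6 were higher in adipocytes in both depots. Prdx1, an abundant cytosolic peroxiredoxin, was at 473, 306 and 330.1 FPKM in EAT adipocytes and 337, 313 and 302 in IAT adipocytes. EAT SVCs held 266, 234 and 289 FPKM and IAT SVCs 242, 225 and 222. Adipocytes exceeded SVCs in EAT (log2 difference 0.47 ± 0.14, adjusted p = 0.00832) and IAT (log2 difference 0.46 ± 0.14, adjusted p = 0.00875), and without EAT adipocyte library 1, which was the highest of all 12, the EAT difference was 0.28, still called. Prdx2 was at 163 ± 37.0 and 149.7 ± 5.77 FPKM in EAT and IAT adipocytes and 124 ± 5.87 and 115 ± 7.005 in SVCs (log2 difference 0.38 ± 0.13, adjusted p = 0.0142 in EAT, log2 difference 0.37 ± 0.13, adjusted p = 0.0144 in IAT). Its EAT difference was 0.20 without that library, still called, but the call was lost in a fit of the EAT groups alone (adjusted p = 0.0575), and its IAT call was lost without IAT SVC library 3 (adjusted p = 0.0561). Prdx2 is also abundant in red blood cells, whose markers summed to 17200 to 22129 FPKM in EAT SVC, 24938 to 30086 in IAT SVC and 868 to 1730 in adipocyte libraries, and their part was not tested.

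Prdx3, of mitochondria, was at 112 ± 14.0 and 109 ± 2.70 FPKM in adipocytes and 18.3 ± 1.91 and 21.3 ± 1.56 in SVCs of EAT and IAT (log2 difference 2.55 ± 0.10, adjusted p = 5.5e-11 in EAT, log2 difference 2.31 ± 0.10, adjusted p = 1.3e-10 in IAT). Prdx5, of mitochondria and peroxisomes, was at 359.9 ± 94.9 and 344 ± 18.1 in adipocytes and 157 ± 11.7 and 102 ± 7.74 in SVCs. It was higher in adipocytes in both depots and lower in IAT than EAT SVCs (log2 difference −0.62 ± 0.15, adjusted p = 0.00443). Of its exon bases, 19.1% overlap the opposite-strand gene Trmt112. Prdx6, which reduces phospholipid hydroperoxides and draws on glutathione, had opposite depot differences. It was at 284, 198 and 214 FPKM in EAT adipocytes and 145, 133 and 136 in IAT adipocytes. EAT SVCs held 35.7, 33.9 and 39.2 FPKM and IAT SVCs 57.0, 63.1 and 54.0. The 4 groups did not overlap, and the fractions lay closer together in IAT than in EAT. Prdx6 was 1.69-fold lower in IAT than EAT adipocytes (log2 difference −0.73 ± 0.12, adjusted p = 4.6e-04) and 1.60-fold higher in IAT than EAT SVCs (log2 difference 0.66 ± 0.12, adjusted p = 7.0e-04). SVCs held 15.6% of the adipocyte level in EAT and 42.1% in IAT. The adipocyte markers given above were also higher in IAT than EAT SVCs, and their part was not tested.

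Prdx4, the peroxiredoxin of the endoplasmic reticulum, was the exception, lower in adipocytes in both depots. Its libraries were at 43.1, 29.0 and 27.2 FPKM in EAT adipocytes and 23.8, 25.2 and 23.7 in IAT adipocytes. EAT SVCs held 43.9, 43.9 and 50.05 FPKM and IAT SVCs 47.2, 44.1 and 42.9. EAT adipocyte library 1 lay close to the EAT SVCs and the other adipocyte libraries well under them. Prdx4 was lower in adipocytes in EAT (log2 difference −0.49 ± 0.13, adjusted p = 0.00457) and IAT (log2 difference −0.86 ± 0.13, adjusted p = 5.8e-05), the EAT call being lost under median-of-ratios scaling (adjusted p = 0.51). Its lower level in IAT than EAT adipocytes (log2 difference −0.41 ± 0.13, adjusted p = 0.0326) was −0.21 without EAT adipocyte library 1 (adjusted p = 0.0329), and the call was lost without IAT adipocyte library 1, IAT adipocyte library 2 or IAT adipocyte library 3 (adjusted p 0.0593 to 0.0878) and under median-of-ratios scaling. That depot call was lost too with no filter and with the adipocyte groups alone.

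The cytosolic thioredoxin reductase Txnrd1, whose promoter match is shown above, was at 22.2, 26.9 and 25.7 FPKM in EAT adipocytes and 34.2, 32.8 and 35.8 in IAT adipocytes. EAT SVCs held 66.9, 59.8 and 62.5 FPKM and IAT SVCs 46.1, 33.3 and 41.6. EAT SVCs were highest and EAT adipocytes lowest, and the IAT fractions overlapped. It was 2.53-fold lower in adipocytes than SVCs in EAT (log2 difference −1.31 ± 0.11, adjusted p = 1.3e-07), higher in IAT than EAT adipocytes (log2 difference 0.45 ± 0.11, adjusted p = 0.00685) and lower in IAT than EAT SVCs (log2 difference −0.64 ± 0.11, adjusted p = 4.6e-04). In IAT the fractions were not called apart (adjusted p = 0.0831), but adipocytes were called lower without EAT adipocyte library 1 (adjusted p = 0.049) or IAT SVC library 2 (adjusted p = 0.00562). The mitochondrial Txnrd2 was at 13.2 ± 1.32 and 15.8 ± 0.596 FPKM in adipocytes and 5.35 ± 0.474 and 5.04 ± 0.611 in SVCs. Txnrd3 was at 9.03 ± 0.312 and 9.74 ± 0.459 against 4.48 ± 0.338 and 5.06 ± 0.587. Both genes were higher in adipocytes in both depots. Txnrd2 was not called between the adipocytes (adjusted p = 0.0554), but it was called higher in IAT under 4 of 18 alternatives: without EAT adipocyte library 1 (adjusted p = 0.0118), IAT SVC library 1 (adjusted p = 0.0478) or IAT SVC library 3 (adjusted p = 0.0473), and under median-of-ratios scaling (adjusted p = 0.0128).

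All 3 superoxide dismutases and catalase were higher in adipocytes in both depots. Sod1, the cytosolic copper and zinc enzyme, was the most abundant at 1171, 762 and 796 FPKM in EAT adipocytes and 1410.1, 1347 and 1274 in IAT adipocytes. EAT SVCs held 330.4, 393 and 346 FPKM and IAT SVCs 368, 359 and 319.7. Adipocytes exceeded SVCs in EAT (log2 difference 1.33 ± 0.15, adjusted p = 2.3e-06) and IAT (log2 difference 1.94 ± 0.15, adjusted p = 5.0e-08). IAT adipocytes exceeded EAT adipocytes with no overlap (log2 difference 0.59 ± 0.15, adjusted p = 0.0081), though fitted on the adipocyte groups alone the depot call was lost (adjusted p = 0.0538). Sod2, the mitochondrial manganese enzyme, was at 54.9, 39.4 and 41.1 FPKM in EAT adipocytes and 60.2, 58.0 and 56.0 in IAT adipocytes. EAT SVCs held 12.5, 13.4 and 13.2 FPKM and IAT SVCs 11.0, 9.48 and 9.92. The 4 groups did not overlap. Sod2 was higher in IAT than EAT adipocytes (log2 difference 0.37 ± 0.11, adjusted p = 0.0169) and lower in IAT than EAT SVCs (log2 difference −0.34 ± 0.11, adjusted p = 0.0242). The calls were lost without EAT adipocyte library 2, EAT adipocyte library 3 or IAT adipocyte library 1 (adjusted p 0.0615 to 0.0692) for adipocytes and without EAT SVC library 2, EAT SVC library 3, IAT SVC library 2 or IAT SVC library 3 (adjusted p 0.0639 to 0.091) for SVCs, where median-of-ratios scaling also ended the call. The adipocyte call was lost as well in a fit of the adipocyte groups alone. Between fractions Sod2 differed by 1.70 ± 0.11 in EAT and 2.41 ± 0.11 in IAT. Sod3, the secreted enzyme, was at 338 ± 16.02 and 296 ± 9.49 FPKM in adipocytes and 117 ± 5.12 and 98.0 ± 6.29 in SVCs. Its lower level in IAT than EAT SVCs (log2 difference −0.26 ± 0.08, adjusted p = 0.0159) lost its call without EAT SVC library 2 or IAT SVC library 3 (adjusted p 0.0532 to 0.0745) and under median-of-ratios scaling. Catalase, the hydrogen peroxide enzyme of peroxisomes, was at 295, 352 and 343 FPKM in EAT adipocytes and 340.3, 367 and 358 in IAT adipocytes. EAT SVCs held 36.5, 36.2 and 37.5 FPKM and IAT SVCs 37.5, 38.4 and 39.1. No SVC library passed 39.1 FPKM and no adipocyte library fell under 295 FPKM (log2 difference 3.13 ± 0.08, adjusted p = 1.0e-12 in EAT, log2 difference 3.18 ± 0.08, adjusted p = 9.1e-13 in IAT). No depot difference was called (adjusted p = 0.288 in adipocytes and 0.572 in SVCs), apart from a higher level in IAT adipocytes under median-of-ratios scaling (adjusted p = 0.0156). Of the 50-base stretches of Sod1, 23.1% also occur in another gene.

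Glutathione synthesis did not follow 1 direction between fractions. Gclc, the catalytic subunit of the rate-limiting ligase, was at 16.5, 16.5 and 17.2 FPKM in EAT adipocytes and 14.1, 13.8 and 14.7 in IAT adipocytes. EAT SVCs held 37.0, 31.6 and 36.6 FPKM and IAT SVCs 21.7, 17.9 and 20.6. The 4 groups did not overlap and EAT SVCs were highest. Gclc was lower in adipocytes in EAT (log2 difference −1.02 ± 0.08, adjusted p = 8.6e-08) and in IAT (log2 difference −0.47 ± 0.08, adjusted p = 1.6e-04), a call lost in IAT under median-of-ratios scaling (adjusted p = 0.492), and 1.75-fold lower in IAT than EAT SVCs (log2 difference −0.78 ± 0.08, adjusted p = 8.2e-06). Between adipocytes it was not called (adjusted p = 0.0532), but it was called lower in IAT under 6 of 18 alternatives: without EAT adipocyte library 1 (adjusted p = 0.0433), EAT SVC library 2 (adjusted p = 0.0338) or IAT SVC library 2 (adjusted p = 0.0374), with the pseudocount at 0.1 (adjusted p = 0.0471), with the adipocyte groups alone (adjusted p = 0.0422) and with the replicate block (adjusted p = 0.0372). The modifier subunit Gclm was at 14.5 ± 0.631 and 14.7 ± 1.10 FPKM in EAT and IAT adipocytes and 12.7 ± 0.407 and 10.4 ± 0.497 in SVCs. It was higher in adipocytes in EAT (log2 difference 0.18 ± 0.07, adjusted p = 0.0289) and IAT (log2 difference 0.47 ± 0.07, adjusted p = 4.0e-05), and the EAT call was lost without EAT adipocyte library 1 or EAT SVC library 1 (adjusted p 0.0647 to 0.0959). The same call was lost in a fit of the EAT groups alone. Gss was at 12.0 ± 1.87 and 11.7 ± 0.811 in adipocytes and 4.45 ± 0.559 and 3.76 ± 0.164 in SVCs, and Gsr at 15.9 ± 1.64 and 14.97 ± 0.963 against 11.7 ± 0.610 and 9.24 ± 0.0992. These 2 were higher in adipocytes in both depots. Gclc, Gclm and Gsr were lower in IAT than EAT SVCs, with the calls of Gclm and Gsr lost under median-of-ratios scaling (adjusted p = 0.0857 and 0.068). Gss was not called there (adjusted p = 0.188) except after rescaling to TPM, where it was lower in IAT (adjusted p = 0.0491).

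**Figure D5:**
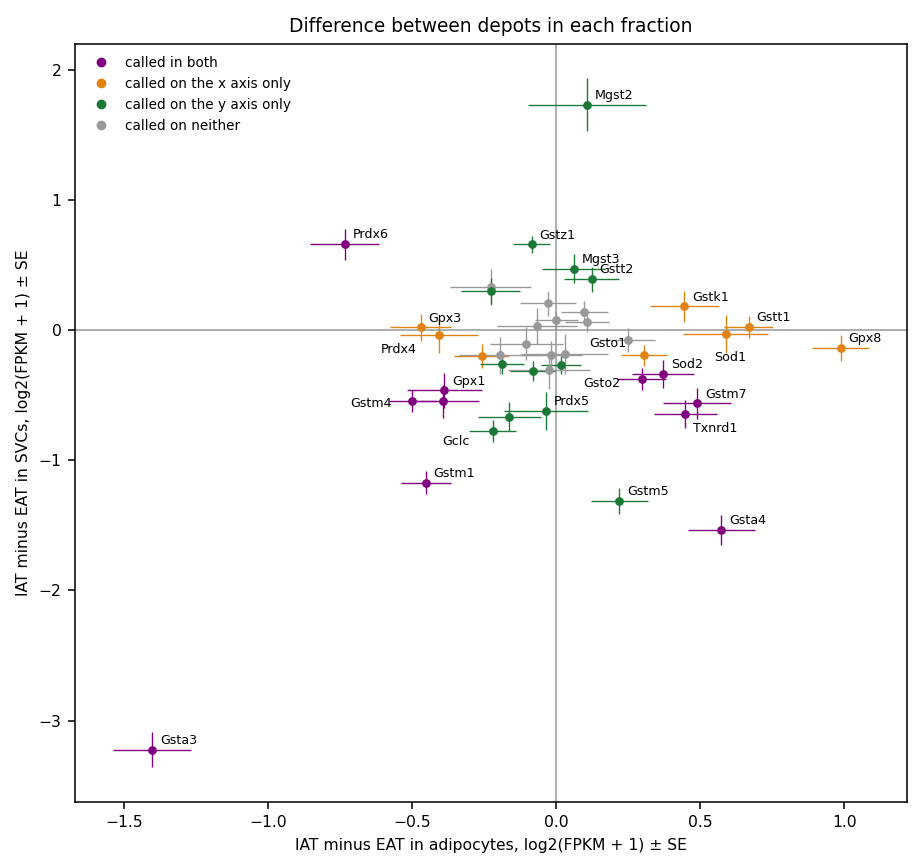
Log2 difference of IAT minus EAT in adipocytes (horizontal axis) and SVCs (vertical axis) for the 43 tested members, each with its standard error, coloured by which differences passed the test. Gsta4, Gstm7, Gsto2, Sod2 and Txnrd1 lie at the lower right, Prdx6 at the upper left and Gsta3 at the lower left.

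Other genes of the same pathways were counted from lists, with their shares set against those over all tested features: 31.1% above and 52.7% below SVCs for EAT adipocytes, 29.8% and 53.9% for IAT adipocytes, and, higher and lower in IAT than EAT, 10.3% and 27.3% in adipocytes and 14.0% and 26.2% in SVCs. Of 17 genes of the NRF2 pathway, which controls many antioxidant genes, 1 was higher and 14 (82.4%) were lower in adipocytes than SVCs in EAT (median −1.32), and 2 were higher and 11 (64.7%) lower in IAT (median −0.62). Between depots, 2 were higher and 12 (70.6%) lower in IAT SVCs, and 4 (23.5%) were higher and 4 lower in IAT adipocytes, the last close to the share over all features. The depot difference was higher in adipocytes than in SVCs for 9 of the 17 (52.9%, against 14.7% of all features) and lower for 1. Nfe2l2, which encodes NRF2, was at 44.7 ± 3.66 FPKM in EAT adipocytes, 43.3 ± 1.47 in IAT adipocytes, 147 ± 12.6 in EAT SVCs and 80.8 ± 6.40 in IAT SVCs. It was lower in adipocytes in EAT (log2 difference −1.70 ± 0.09, adjusted p = 1.0e-09) and lower in IAT than EAT SVCs (log2 difference −0.86 ± 0.09, adjusted p = 6.4e-06). Maff, a small Maf protein of the family that pairs with NRF2, was at 101 ± 0.847 FPKM in EAT SVCs and 56.3 ± 5.56 in IAT SVCs (log2 difference −0.84 ± 0.11, adjusted p = 3.9e-05). In adipocytes Osgin1 was higher in IAT (log2 difference 0.87 ± 0.10, adjusted p = 2.7e-05) and Ephx1, an epoxide hydrolase, was lower (log2 difference −0.60 ± 0.08, adjusted p = 9.5e-05).

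The 10 genes of NADPH supply were mostly higher in adipocytes, with 9 (90.0%) above SVCs and 1 below in EAT (median 1.65) and with 8 (80.0%) above and 2 below in IAT (median 1.94). Malic enzyme Me1 was at 268 ± 44.4 and 301 ± 24.2 FPKM in EAT and IAT adipocytes and 8.43 ± 0.598 and 9.09 ± 0.485 in SVCs (log2 difference 4.83 ± 0.11, adjusted p = 5.0e-13 in EAT). Transketolase Tkt was at 311 ± 39.9 and 453 ± 22.4 FPKM in adipocytes, higher in IAT (log2 difference 0.55 ± 0.11, adjusted p = 0.00165), and at 47.3 ± 5.07 and 44.1 ± 3.04 in SVCs. Nnt, in which the strain carries its deletion, was at 7.07 ± 0.602 FPKM in EAT and 2.81 ± 0.168 in IAT adipocytes (log2 difference −1.08 ± 0.08, adjusted p = 3.8e-07). In SVCs none of the 10 was higher in IAT and 5 (50%) were lower.

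The thioredoxin and glutaredoxin list has 16 genes. In EAT adipocytes 10 of them (62.5%) were above SVCs and 3 below, and in IAT adipocytes 10 and 4. Msrb1, a methionine sulfoxide reductase, was at 172 ± 35.3 and 111 ± 5.96 FPKM in EAT and IAT adipocytes and 36.6 ± 1.49 and 34.9 ± 2.44 in SVCs. It was lower in IAT adipocytes (log2 difference −0.61 ± 0.12, adjusted p = 0.00174). Txnip, which binds thioredoxin, was higher in IAT than EAT SVCs (log2 difference 0.62 ± 0.10, adjusted p = 2.7e-04). Of 13 measured genes of glutathione turnover and the glyoxalases, adipocytes were above SVCs for 8 (61.5%) and below for 5 in EAT, and for 8 and 4 in IAT. The dipeptidase Dpep1 was at 6.204 ± 0.501 FPKM in EAT adipocytes and 237 ± 13.0 in EAT SVCs (log2 difference −5.05 ± 0.09, adjusted p = 1.0e-13), and the glutamine transporter Slc1a5 went the other way, at 893 ± 84.0 and 97.6 ± 3.64 FPKM (log2 difference 3.18 ± 0.08, adjusted p = 1.9e-12). Between depots, 5 of these 13 (38.5%) were higher and 2 lower in IAT adipocytes, and in IAT SVCs 0 were higher and 4 (30.8%) lower, the last close to the share over all features.

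Of 13 measured genes for oxidant producing enzymes, 1 was higher and 8 (61.5%) were lower in IAT than EAT adipocytes, and 1 and 6 (46.2%) in SVCs. Those lower include subunits of the phagocyte oxidase. Cybb was at 4.09 ± 0.839 FPKM in EAT and 0.759 ± 0.179 in IAT adipocytes (log2 difference −1.52 ± 0.12, adjusted p = 1.2e-06) and at 36.8 ± 2.85 and 20.7 ± 1.79 in SVCs. The macrophage markers given above were ordered the same way in the 4 groups, and their part was not tested. Of 11 measured genes of metal delivery and selenoprotein synthesis, 0 were higher and 4 (36.4%) lower in IAT adipocytes, a share not far from that over all features, and 3 (27.3%) were higher and 3 lower in adipocytes than SVCs in each depot. Sepp1, which encodes the secreted selenium carrier selenoprotein P, was at 573 ± 47.7 and 348 ± 8.88 FPKM in EAT and IAT adipocytes and 1596 ± 168 and 1063 ± 30.2 in SVCs. It was lower in adipocytes in EAT (log2 difference −1.47 ± 0.10, adjusted p = 1.9e-08) and IAT (log2 difference −1.61 ± 0.10, adjusted p = 8.1e-09).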

How the data were processed

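The tables the authors deposited hold 1 FPKM value per gene and library with lower and upper confidence bounds, and no read counts. FPKM scales fragments to exon length and to the library's mapped fragments. Per the submitters' processing notes, TopHat, Cufflinks and the mouse build GRCm38 (mm10) were used. Versions, the annotation, the read length and the strand of counting are not given in the sources used here, and the libraries follow a standard Illumina preparation per the labels' protocols. Exact zeros can be failed estimates, but features marked as failed in any library were left out, so zeros given here carry no such mark.

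Of 24890 features, 9 with a failed estimate were left out and 13175 that reached 1 FPKM in 3 or more libraries were tested on log2(FPKM + 1) with limma 3.58.1 in R 4.3.3 (lmFit, eBayes with a trend, 4 group means, all libraries). The 5 contrasts were two-sided, with Benjamini-Hochberg adjustment in each and calls under 0.05. The fit was tested on simulated data. Members and gene lists were chosen with earlier results of these data known. Members named with every library value were the called members without group overlap and with a group mean of at least 5 FPKM, up to 6 per direction and contrast, the most abundant of each class, and those with opposite depot directions. Up to 4 pathway genes per list and contrast could be named. Shared 50-base stretches and exon overlaps came from GENCODE vM21 transcripts, in place of protein identities, which were not computed, and promoters from RefSeq (GRCm38.p6). Tables and figures were made in Python 3.11.15 with matplotlib 3.10.9, pandas 2.3.3 and NumPy 2.4.6. Alternatives were a pseudocount of 0.1, no filter, rescaling to TPM, median-of-ratios scaling, the compared groups alone, a replicate block and leaving out each library.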

Additional observations from a re-analysis of the deposited data

Results flagged for a closer look

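For 22 members the depot difference (IAT minus EAT) was not the same in adipocytes and SVCs by the test of that difference in limma, with adjusted p from 9.2e-07 for Gsta4 to 0.0485 for Gpx7, and 14.7% and 17.8% of all tested features were called in the same directions. Values are the adipocyte depot difference minus the SVC depot difference ± SE on the log2(FPKM + 1) scale. Among transferases it was highest for Gsta4 (2.11 ± 0.16), Gsta3 (1.82 ± 0.19), Gstm5 (1.53 ± 0.14) and Gstm7 (1.05 ± 0.17). It was also above 0 for Gstm1 (0.72 ± 0.12), Gsto2 (0.67 ± 0.12), Gstt1 (0.64 ± 0.12), Gsto1 (0.50 ± 0.11) and Gstm3 (0.50 ± 0.15). It was below 0 for Mgst2 (−1.63 ± 0.29), Gstz1 (−0.75 ± 0.09) and Mgst1 (−0.53 ± 0.14).

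Among peroxidases and reductases it was above 0 for Gpx8 (1.13 ± 0.14), Txnrd1 (1.09 ± 0.16) and Prdx5 (0.58 ± 0.21), and below 0 for Prdx6 (−1.40 ± 0.17), Gpx7 (−0.56 ± 0.20) and Gpx3 (−0.49 ± 0.15). Sod2 (0.71 ± 0.15) and Sod1 (0.62 ± 0.21) were above 0, as were Gclc (0.56 ± 0.12) and Gclm (0.28 ± 0.10). The calls of Gclm, Gpx3, Gpx7, Gstm3, Prdx5 and Sod1 were lost under between 7 and 13 of 17 alternatives, and those of the other 16 were kept under all 17. Without EAT adipocyte library 1 the count was 20 above and 5 below, where 18.24% and 21.99% of all features were called. In that fit Gpx7 was lost (adjusted p = 0.0507) and Gsr, Gstk1, Gstp1 and Txnrd2 were added. Under other alternatives Mgst3 was added in 4, Txnrd2 in 2 and Gsr in 1. Marker lists of mesothelial cells, macrophages and adipocytes also differed between the depots of 1 or both fractions, and their part in these differences was not tested.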

How the results depend on the processing

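Calls of single members kept direction and significance in 678 and lost significance in 6 refits for the EAT fractions, 659 and 6 for the IAT fractions, 397 and 17 for the SVC depots, 296 and 46 for the adipocyte depots and 310 and 64 for the interaction. In contrasts of 2 groups, leaving out a library of another group cannot change the difference, so such refits could not reverse a call. The same holds there with no filter, the compared groups alone and the replicate block. One call reversed: Gstt2 between IAT fractions turned to 0.0925 under median-of-ratios scaling. Of members in the adipocyte depot comparison, 6 were higher when the compared groups were fitted alone, and 5 were lower with no filter and 5 under median-of-ratios scaling, against 10 and 9. Leaving out 1 library gave 7 to 12 higher and 5 to 9 lower. For IAT fractions, 1 member was lower under median-of-ratios scaling. Pathway genes higher in IAT SVCs numbered 3 after rescaling to TPM and 8 under median-of-ratios scaling, against 5. Ratios of class sums, EAT then IAT, became 1.96 and 2.91 for cytosolic transferases, 12.3 and 8.78 for membrane transferases, 2.72 and 2.52 for glutathione peroxidases and 2.60 and 2.56 for peroxiredoxins under median-of-ratios scaling. Rescaled to TPM, the IAT ratios were 7.11, 2.04 and 2.07 for the last 3. The cause was not tested. The labels do not say whether replicate numbers pair libraries. The 18 correlations of deviations between same-numbered libraries ran from −0.31 to 0.37 (median 0.03), which cannot decide it with 3 libraries per group. A replicate block gave 10 higher and 10 lower members for adipocyte depots, 6 and 17 for SVC depots, 31 and 7 for EAT fractions, 33 and 4 for IAT fractions and 15 and 7 for the interaction. Depth limits the low members: the bounds lay 25.2% to 60.1% from the values of Gstm3 and 19.8% to 42.3% from those of Gsto2.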

Other observations

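Gpx5, known as a peroxidase of the epididymis, was listed at 0 in all 12 libraries, and 9 markers of epididymal epithelium summed to at most 3.46 FPKM, in an EAT SVC library. Cyp2e1, an oxidase best known from liver, averaged 1345 FPKM in EAT and 762 in IAT adipocytes, while Alb, the defining marker of hepatocytes, averaged 8.08 and 29.2 FPKM. T cell markers summed to 15.8 to 17.1 FPKM in EAT SVC and 106 to 167 FPKM in IAT SVC libraries, and B cell markers to 40.9 to 43.9 and 160 to 247 FPKM.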
